A study of Mus musculus with 10 samples.

Results

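Enteroendocrine wells are described here: the wells of 10 plates of mouse small intestinal crypt cells whose transcripts carried enough of 14 enteroendocrine genes. The 14 genes were the granins Chga and Chgb, the transcription factors Neurod1, Neurog3 and Isl1, the calcium-binding protein gene Scgn, the peptide genes Cck, Gip, Sct, Tac1, Ghrl, Gcg and Sst, and Tph1, which encodes the enzyme that starts serotonin synthesis. A well was kept when it held at least 1000 endogenous transcripts, when the 14 genes made up at least 0.3% of them, and when at least 3 of the 14 were above 0. Wells 1 to 72 of the plate coded JC68 were left out. This kept 73 of 2085 used wells, 54 of 1615 in the sorted libraries and 19 of 470 in the picked libraries. The levels of the 14 genes chose the wells, so they are given below as a description, and tests are given only for other genes.

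All libraries came from C57Bl/6 mice, with no genotype or treatment named. After full dissociation single cells were sorted into 384-well plates (7 libraries), and after mild dissociation groups of attached cells, labelled doublets or triplets, were picked by mouth pipette (3 libraries). A picked well therefore holds the transcripts of an enteroendocrine cell together with those of its neighbours. RNA was read by CEL-seq2, which counts molecules at the 3′ end through random barcodes, so that values of different genes are comparable without a correction for length. The labels do not say which libraries come from separate animals, so p-values measure the spread between libraries, which may be technical. Sorting code and picking go together (GK5a and GK5b for sorted plates, JC for picked plates), and they cannot be told apart from the dissociation. Sex also moves with picking: in wells outside the enteroendocrine set Xist lay between 123 and 150.3 CPM (transcripts of a gene per 1000000 transcripts) in the picked libraries and at no more than 1 in the 6 sorted libraries compared. The Y-linked gene Ddx3y lay between 58.2 and 90.3 in those sorted libraries and was at 0 in the picked ones.

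Enteroendocrine cells are scattered hormone-secreting cells of the gut epithelium. They arise in the crypt from secretory progenitors that switch on Neurog3 for a short time, then Neurod1 and a set of further transcription factors, and they store peptides in dense-core granules built from granins. Cells that make serotonin are called enterochromaffin cells and often also express Tac1, the substance P precursor. Other cells make cholecystokinin (Cck), gastric inhibitory peptide (Gip), secretin (Sct), ghrelin (Ghrl), proglucagon (Gcg), somatostatin (Sst), neurotensin (Nts) or peptide YY (Pyy), often several of them at once.

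The proximal promoters of 4 peptide genes are shown because these genes were above 0 in more of the wells than any other hormone gene with a single RefSeq promoter window: Sct in 48 wells, Cck in 34, Tac1 in 34 and Gip in 24. Each line gives the 250 bases before the annotated start, 5′ to 3′ on the gene's strand, from RefSeq on GRCm38.p6. Capitals mark CAGATG, read on either strand (CATCTG on the other), a form of the E-box CANNTG that basic helix-loop-helix factors such as Neurod1 bind.
Sct: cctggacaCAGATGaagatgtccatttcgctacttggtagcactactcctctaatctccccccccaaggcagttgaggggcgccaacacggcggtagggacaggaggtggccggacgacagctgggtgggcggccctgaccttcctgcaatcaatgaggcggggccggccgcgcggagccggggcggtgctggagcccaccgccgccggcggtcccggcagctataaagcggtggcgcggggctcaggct
Cck: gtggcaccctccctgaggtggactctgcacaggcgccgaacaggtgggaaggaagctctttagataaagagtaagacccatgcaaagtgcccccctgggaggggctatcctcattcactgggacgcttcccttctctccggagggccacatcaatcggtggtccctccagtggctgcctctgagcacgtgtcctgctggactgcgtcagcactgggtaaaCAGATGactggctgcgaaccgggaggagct
Tac1: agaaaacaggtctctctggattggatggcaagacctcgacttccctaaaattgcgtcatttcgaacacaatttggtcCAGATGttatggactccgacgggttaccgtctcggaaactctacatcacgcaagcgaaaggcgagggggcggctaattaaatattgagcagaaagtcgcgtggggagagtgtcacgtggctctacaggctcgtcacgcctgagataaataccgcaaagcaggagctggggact
Gip: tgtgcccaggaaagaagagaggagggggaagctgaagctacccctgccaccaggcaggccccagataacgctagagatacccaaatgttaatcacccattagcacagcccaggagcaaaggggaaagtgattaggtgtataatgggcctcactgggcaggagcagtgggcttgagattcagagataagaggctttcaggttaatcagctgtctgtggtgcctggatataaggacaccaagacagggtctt
They lie at chr7:141279134-141279383 (minus strand), chr9:121495695-121495944 (minus strand), chr6:7554811-7555060 (plus strand) and chr11:96024295-96024544 (plus strand). The RefSeq gene records of Sct and Gip begin inside these windows, at chr7:141279174 and chr11:96024532. Distances below are counted from the start used for the window. CAGATG begins 242 bases before the start of Sct, 30 before that of Cck and 173 before that of Tac1, and it is not in this window of Gip. Over all 32851 RefSeq windows of this length, 14.4% hold CAGATG and 66.2% hold CANNTG. All 17 hormone and selection genes had a window, and 5 of the 17 held CAGATG in at least 1 of their windows. Some of these genes have several windows, so this count of genes is in another unit than the share of windows. Of the 13 genes with 1 window, 4 held CAGATG. A match is a run of letters and no measured site.

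The libraries held between 821829 (picked replicate 2) and 4832581 (sorted replicate 6) transcripts over their used wells. Enteroendocrine wells made up 3.17%, 4.78%, 3.43%, 3.57%, 3.27%, 0.379% and 4.98% of used wells in the 7 sorted libraries, and 4.4%, 3.91% and 4% in the 3 picked ones. Sorted replicate 6 stood apart with 1 enteroendocrine well of 264 (exact 95% binomial interval 0.00959 to 2.09%, counting error only), although it was the deepest library, and it enters no comparison below that needs 3 wells. The picked mean was 0.73 percentage points above the sorted mean, within the spread of the libraries (two-sided exact permutation test, 3 against 7 libraries, p = 0.45, where the smallest possible p is 0.0167). Within code GK5a alone the sorted libraries lay between 3.17% and 4.78%, and the picked mean was 0.455 points above their mean.

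Picked replicate 1 needs separate reading. One of its 4 enteroendocrine wells held 44248 transcripts, 78.9% of all transcripts in its enteroendocrine wells, with 915 transcripts of Ghrl, 275 of Cck and 273 of Gcg. In the 87 wells of this library outside the set, 73.6% had at least 1 Ghrl transcript, against 1.86% of such wells in the sorted libraries. Among the transcripts of Ghrl, Cck and Gcg together, those wells had 65.6%, 14.4% and 20%, and the deep well had 62.5%, 18.8% and 18.7%. Of the other 3 enteroendocrine wells, 2 held Ghrl, Cck and Gcg but no transcript of Chga, Chgb, Neurod1, Isl1 or Scgn, and the third held 15 of Chgb and 5 of Neurod1 with 1 of Ghrl. A well of picked replicate 3 likewise had Ghrl, Cck and Tac1 and none of those 5 genes. Requiring a transcript of Chga, Chgb, Neurod1, Isl1 or Scgn as well, a requirement chosen after seeing the data, left 70 wells and put the picked mean share 0.168 points below the sorted one. Results that rest on this library are given with and without it.

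The share of the 14 genes varied widely from well to well, from 0.313% to 47.6% of a well's transcripts, with a median of 5.84%. The median was 7.26% in the 54 sorted wells and 1.75% in the 19 picked wells. The lowest wells inside the rule stood at 0.313%, 0.353% and 0.401%, and the nearest wells just outside it at 0.291%, 0.285% and 0.281%. In all, 128 wells had at least 3 of the genes but too small a share, 6 had the share but too few genes, and 5 of the kept wells had exactly 3 genes. None of the 31 used wells in positions 1 to 72 of JC68 met the rule. The 73 wells had 71 distinct well barcodes, and 1 barcode served in more than 1 library. In the libraries' other wells the 14 genes together held between 0.00467% and 0.0459% of transcripts.

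**Figure D1:**
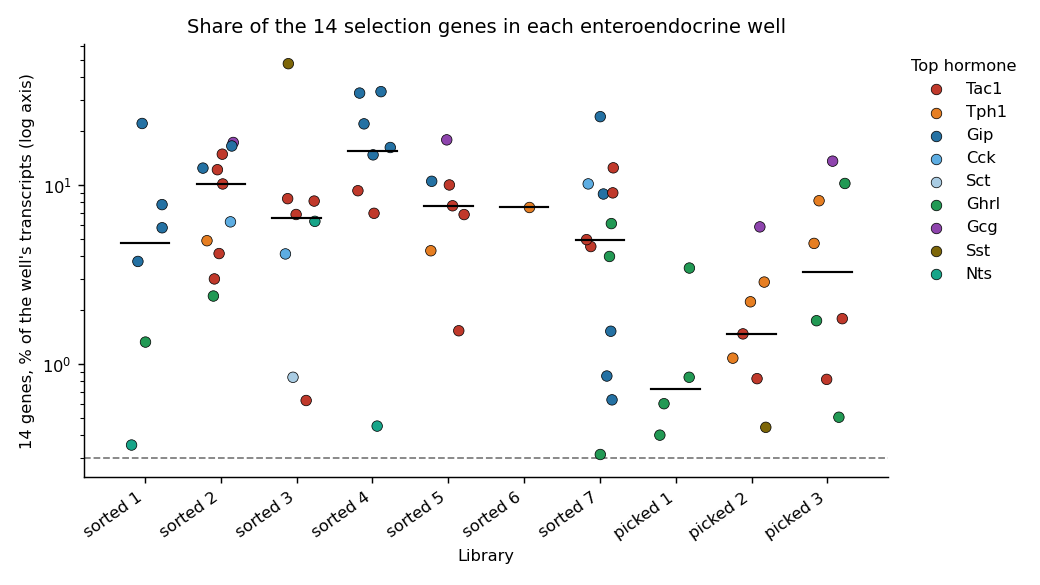
Share of the 14 selection genes in each of the 73 enteroendocrine wells (vertical log axis, percent of the well's transcripts) by library. Each point is a well, coloured by its top hormone, bars are medians and the dashed line is the 0.3% limit; picked replicate 1 has the lowest median and sorted replicate 4 the highest.

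Among the granins, Chgb was the most widespread of the 14 genes, with transcripts in 65 of 73 wells, 51 of 54 sorted and 14 of 19 picked. In the 6 sorted libraries with at least 3 enteroendocrine wells its level was 3963, 35774, 36563, 14457, 29569 and 25984 CPM of all transcripts in those wells, and in the 3 picked libraries 554, 6455 and 11259.8. The 2 ranges overlap only through sorted replicate 1, where 4 of 6 enteroendocrine wells were led by Gip. Chga, the classical granule marker, was found in 50 wells, at 698, 5627, 3280.3, 4079, 1380.0 and 6268 CPM in the sorted and 53.5, 869.8 and 4899 in the picked libraries, so the ranges overlap. Other wells had 8.5 CPM of Chgb and 6.67 of Chga over the sorted libraries, and 10.3 and 5 over the picked ones. The background for a well with a single Chgb transcript differed between libraries: one was seen in 27.4% of other wells of sorted replicate 7 and in 1.64 to 10.7% of those of the other sorted libraries.

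Of the transcription factor genes, Neurod1, which acts downstream of Neurog3, was found in 51 of the 73 wells. It stood at 619.6, 1729.9, 724, 199, 1112 and 2043 CPM in the sorted and 393, 304 and 595 in the picked libraries. Isl1, a LIM-homeodomain factor of peptide-producing endocrine cells, was found in 33 wells and Scgn in 36. Sorted libraries had 1163, 1221, 201, 676, 690.2 and 1307 CPM of Isl1, and picked libraries 71.4, 217 and 119. The lowest sorted library, replicate 3, lies just under the highest picked library for Isl1. These 3 genes are close to absent elsewhere: over the sorted libraries together, at most 1.28% of other wells had a transcript of any one of them. By library the share reached 3.63% for Neurod1 and for Scgn in sorted replicate 7, and 2.73% for Isl1 in sorted replicate 1. The rule itself took wells rich in these genes out of the other wells.

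Ranked by wells with a transcript, the hormone genes ran Sct (48 of 73 wells), Cck and Tac1 (34 each), Tph1 (25), Gip (24), Ghrl (18), Gcg (11), Pyy (5), Nts (4) and Sst (2). Insl5, a peptide gene of the colon, was found in none of the 73 wells. By the hormone with the most transcripts in each well, 23 wells were led by Tac1, 17 by Gip, 12 by Ghrl, 8 by Tph1, 4 by Gcg, 3 each by Cck and Nts, 2 by Sst and 1 by Sct, and Pyy led none. Sct, the most widespread, thus led 1 well and Cck 3: of the 34 wells with Cck, 28 also had Sct. In 61 wells at least 2 hormones were present and in 45 at least 3, while in 70 wells the top hormone held over 50% of all hormone transcripts. In 11 wells there were 5 or fewer hormone transcripts in all, so their top hormone is uncertain. The background differed between plates: a Gip transcript was found in 76.2% of other wells of sorted replicate 7 and in 0 to 9.26% of those of the other sorted libraries. For Tac1 the share was 31.6% in sorted replicate 6 and 27.4% in sorted replicate 7, against 2.19 to 3.7% in the other sorted libraries. Sct was widespread outside the set too, in 23.4% of other wells of the sorted libraries and 12% of those of the picked ones. It was in 57% of them in sorted replicate 6, 35.1% in sorted replicate 7 and 9.78 to 15.1% in the other sorted libraries. The wells with Sct, alone or beside Cck, were not compared with this background.

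**Figure D2:**
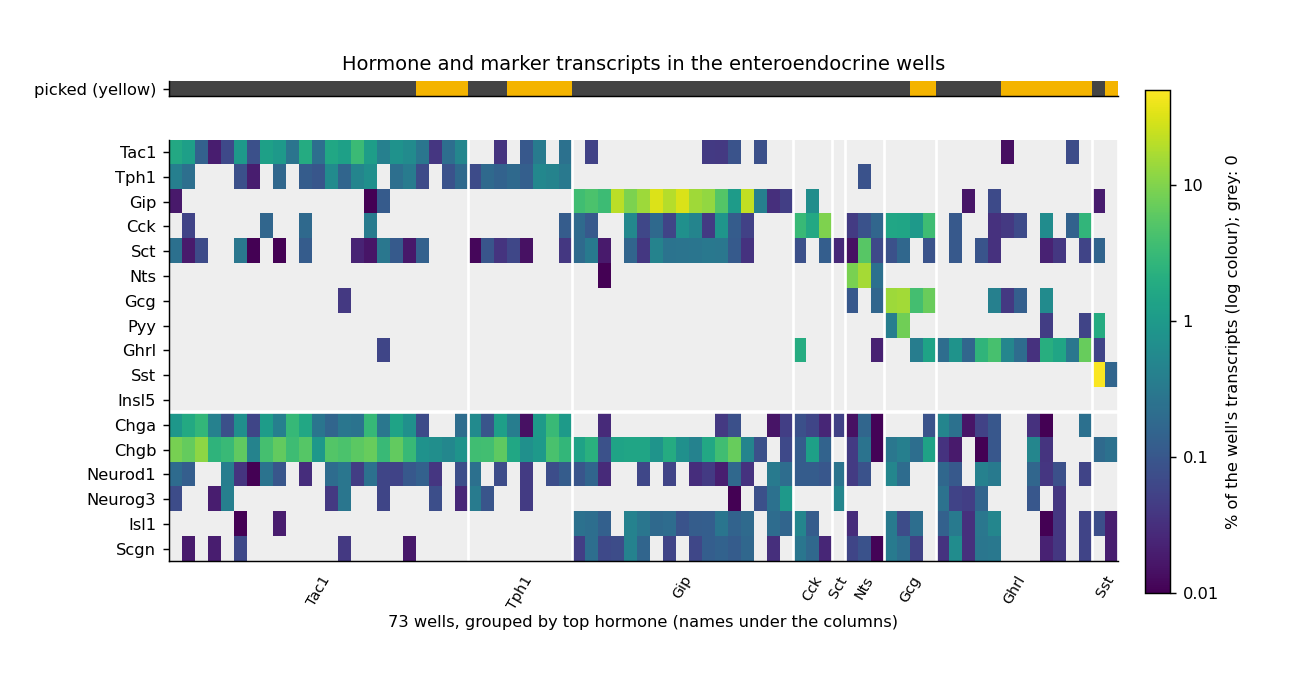
Transcripts of 11 hormone genes and 6 further selection genes (rows) in the 73 enteroendocrine wells (columns, grouped by top hormone), as the percent of a well's transcripts on a log colour scale, with grey for 0; the bar on top marks the 19 picked wells. Isl1 and Scgn are grey in most wells led by Tac1 or Tph1, and no picked well has Gip.

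Wells led by Tac1 or Tph1, 31 in all, formed the enterochromaffin side of the set. Tac1 and Tph1 were found together in 20 wells, which is 58.8% of wells with Tac1 and 80% of wells with Tph1. The largest Tac1 count was 154 transcripts in a well of sorted replicate 3, which also had 27 of Tph1 and 995 of Chgb. All 31 of these wells had Chgb and 29 had Chga, at 8109.6 CPM summed over wells, while in the 42 wells led by other hormones 21 had Chga, at 343. Isl1 ran the other way, with 2 of 31 against 31 of 42 wells and 28.6 against 1142 CPM. Scgn was found in 5 of 31 against 31 of 42 wells. Median depth was 3308 transcripts in the wells led by Tac1 or Tph1 and 3105 in the others. Neurod1 differed little between them, at 1095 and 1009 CPM. These genes chose the wells, and the counts of wells are not replicates, so no test is given for this split.

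Gip separated the sorted from the picked wells most plainly. It was found in 24 of 54 sorted wells, with up to 1332 transcripts in a well, and led 17 of them in 5 libraries. Of the 24 wells, 9 were in sorted replicate 7, where most other wells also had Gip. There, 3 of the 5 wells led by Gip had 5, 2 and 3 transcripts of it, and those led by another hormone had 1 or 2. These low counts are not shown to be above that plate's background. None of the 19 picked wells had a Gip transcript. Over the sorted libraries Gip stood at 31276, 18049, 241, 84724, 9389 and 19394 CPM, and it was at 0 in each picked library, where 3 counts over the enteroendocrine wells of the picked libraries would be 31.3 CPM. In other wells Gip was at 27.5 CPM in the sorted and 3.34 in the picked libraries. Of the 24 wells with Gip, those with low counts in sorted replicate 7 included, 15 also had Cck and 18 had Sct. The spread was uneven within the sorted libraries too: sorted replicate 4 had 5 wells led by Gip and sorted replicate 3 had none. Since Gip was one of the genes that chose the wells, this is a description.

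Ghrl, the ghrelin gene, led 5 sorted and 7 picked wells. Its level was 232, 1879, 60.3, 79.5, 0 and 5739.8 CPM in the sorted and 17056, 304 and 10712 in the picked libraries, ranges that overlap. The 4 wells of picked replicate 1 described above are among the 7 picked wells. The richest sorted Ghrl well, in sorted replicate 7, held 295 Ghrl transcripts with 47 of Neurod1, 17 of Neurog3, 32 of Isl1 and 31 of Scgn, and 1 of Chgb. Gcg, whose product is processed to GLP-1 in the gut, led 4 wells in 4 libraries, and 10 of the 11 wells with Gcg also had Cck. A well of sorted replicate 5 carried 1068 Gcg, 549 Pyy and 104 Cck transcripts, and it was the only enteroendocrine well of that library with Pyy, whose level there was 21031 CPM.

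The rarest kinds rested on single wells. One well of sorted replicate 3 held 2447 Sst transcripts, 47.1% of all its transcripts, and 98 of Pyy. No other sorted well among the 54 had Sst. In the same library 24.4% of the other wells had a transcript of it, against 0 to 3.24% in the other sorted libraries. Of the 2 wells led by Sst, the other was a picked well with 8 transcripts. Nts led 3 sorted wells in 3 libraries, with 617, 192 and 21 transcripts, and was in none of the 19 picked wells. The first of these, in sorted replicate 1, passed the rule narrowly at 0.353%, since Nts was not among the 14 genes, and enterocyte list genes made up 1.77% of its transcripts. A well of sorted replicate 4 led by Gip (480 transcripts) also carried 26 transcripts of Ccl5, 10 of Gzmb and 7 of Gzma, genes of cytotoxic lymphocytes, and the whole immune list of 13 genes made up 1.96% of its transcripts outside the 14 selection genes.

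Neurog3, the transient factor that starts the lineage, was found in 22 of 73 wells. Outside the set it was found in 1.22% of other wells of the sorted libraries, at 10.4 CPM, and in 0.443% of those of the picked ones. In sorted replicate 7 the other wells held 146 Neurog3 transcripts and the enteroendocrine wells 99. Wells with Neurog3 that did not meet the rule are not described here. In 8 wells of the set it reached at least 5 transcripts, from 5 sorted libraries and no picked one. The highest count in the set, 60, was in a well of sorted replicate 7. The other 65 wells had 28 Neurog3 transcripts among them. In the 8 wells Neurod1 was present in 8, Insm1 in 8, Neurod2 in 7 and Pax4 in 6, against 43, 36, 6 and 10 of the other 65. Summed over wells, Neurod2 stood at 487 against 33.1 CPM, Pax4 at 678 against 72.7, Sox4 at 550.4 against 102 and the neuronal tubulin gene Tubb3 at 657 against 6.61. Chga and Chgb were lower in sum, at 1869 against 3698 and 13215 against 22080. By wells with a transcript, Chga was in 8 of the 8 against 42 of the other 65, and Chgb in 6 against 59. Median depth was 6139 transcripts in the 8 wells and 2965 in the others. These wells were picked out by a measured value, come from few libraries and are described without a test.

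The genes outside the 14 were then compared between enteroendocrine and other wells of the same library. The wells of each class were summed per library, both sums were brought to equal depth by random thinning, and limma was fitted with the library as a block (9 libraries, 6971 genes tested). Levels below are CPM of transcripts outside the 14 genes in the sums before thinning, 1 value per library. Of the genes tested, 567 (8.13%) were higher and 237 (3.4%) lower in enteroendocrine wells at an adjusted p under 0.05. The median log2 difference of all tested genes was 0.16, and a gene with next to no transcript in the other wells has a fitted difference that depends on the prior count of 0.5. Without sorted replicate 2 there were 508 calls in all, and without sorted replicate 7 there were 526.

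Genes of hormone processing and granules rose together: all 12 tested members of a list of 13 were higher, against 8.13% of all genes tested, and their median log2 difference was 3.13. Only members with enough transcripts, in many cases those of the enteroendocrine wells themselves, could be tested. Cpe, the carboxypeptidase that trims prohormones, had the largest difference among genes that went the same way in all 9 libraries. It stood at 1372, 1395, 850.2, 1388, 1408 and 2887 CPM in sorted and 276, 176 and 1180.4 in picked enteroendocrine wells, and at no more than 5.7 in other wells of any library (log2 difference 6.12, SE 0.40, adjusted p = 3.5e-27). The groups do not overlap, as was so for 44 of the 6971 genes (0.631%) on the higher side and 19 (0.273%) on the lower side. Scg2, the granin secretogranin II, stood at 88.2 to 691 (median 246) CPM against at most 1.9 (log2 difference 4.36, SE 0.43, adjusted p = 6.9e-16), although only 17 of the 72 wells summed had it. Ptprn2, a granule membrane protein gene, was found in 52 wells at 176 to 1321 (median 835) CPM against 8.63 to 59.5, median 17.4 (log2 difference 4.71, SE 0.39, adjusted p = 6.2e-20). The convertase gene Pcsk1 and the amidating enzyme gene Pam rose by 3.01 (adjusted p = 5.6e-08) and 3.33 (adjusted p = 1.2e-09) on the log2 scale. Pcsk2, the other prohormone convertase, had 1 transcript in all enteroendocrine wells and was not tested.

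Regulated exocytosis followed, with 9 of 11 tested members of a list of 19 higher, against 8.13% of all genes tested. The other 8 members had too few transcripts for a test, and here too members could pass that filter through the enteroendocrine wells. Cplx2, a complexin that clamps and triggers vesicle fusion, was found in 50 wells, at 73.5 to 841 (median 447) CPM against 3.43 to 22.8, median 8.15 (log2 difference 4.14, SE 0.42, adjusted p = 6.7e-15). Rab3c, a vesicle GTPase, had a log2 difference of 3.56 (adjusted p = 7.2e-10), and the synaptotagmin Syt13 one of 3.39 (adjusted p = 1.4e-09). Snap25, the neuronal SNARE, was found in 18 wells and had 2.07 (adjusted p = 0.00127). Scamp5 and Cadps2 did not pass, with log2 differences of -0.20 (adjusted p = 0.849) and -0.15 (adjusted p = 0.9). Outside the lists, Vwa5b2 and Rundc3a also stood among the 12 largest rises with no overlap between the groups, at 73.5 to 1417 (median 484) against at most 8.77 and 40.3 to 531 (median 213) against at most 3.69 CPM.

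Of 24 enteroendocrine transcription factor genes outside the rule, 19 could be tested and 18 of these were higher, against 8.13% of all genes tested. Their median log2 difference was 2.92. Here too members could pass the filter on transcripts through the enteroendocrine wells. Fev, an ETS factor of serotonin neurons and endocrine cells, stood at 444, 1018, 806, 179, 1279 and 892 CPM in the sorted and 129, 309 and 373 in the picked libraries, while other wells had at most 2.08 (log2 difference 5.17, SE 0.41, adjusted p = 4.6e-21). Insm1, a zinc-finger factor of endocrine differentiation, was found in 43 wells, at 91.9 to 1066 (median 525) CPM against at most 15.3 (log2 difference 5.05, SE 0.42, adjusted p = 3.0e-20). The homeodomain gene Nkx2-2 stood at 36.7 to 633 (median 224) against at most 6.26 (log2 difference 3.86, SE 0.43, adjusted p = 6.6e-13). Pax6, Rfx6 and Lmx1a rose by 4.01 (adjusted p = 1.3e-12), 3.85 (adjusted p = 5.2e-12) and 3.70 (adjusted p = 1.6e-10) on the log2 scale and each was at 0 in at least 1 library's enteroendocrine wells. Sox4, which is also expressed in other progenitors, was the tested member that did not pass (log2 difference 0.96, adjusted p = 0.117). Of the Notch and secretory fate list, 1 of 6 tested members of 12 was higher, the ligand gene Dll4 (log2 difference 1.59, adjusted p = 0.0193), which lost its call in 11 of 26 alternatives. Atoh1, the factor of all secretory cells, had -0.97 (adjusted p = 0.171).

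Of 5 tested genes of serotonin synthesis and transport 3 were higher, against 8.13% of all genes tested. Ddc, the decarboxylase of the second step, was found in 60 of the 72 wells, at 132 to 3569 (median 1568) CPM against 76.4 to 182, median 120.4 (log2 difference 3.78, SE 0.31, adjusted p = 8.0e-21). Gch1, which makes the cofactor of Tph1, stood at 0 to 1084 (median 576) against 7.67 to 20.9, median 12 (log2 difference 4.25, SE 0.43, adjusted p = 6.8e-15), and the vesicular transporter gene Slc18a1 rose by 3.41 (adjusted p = 1.3e-09). The serotonin uptake transporter gene Slc6a4 did not pass (log2 difference -0.44, adjusted p = 0.653). Among 20 nutrient receptor and ion channel genes 9 were tested and 6 were higher, against the same 8.13%. In both lists members could pass the filter on transcripts through the enteroendocrine wells. The calcium channel gene Cacna1a was found in 53 wells, at 129 to 892 (median 671) against 7.61 to 26.8 (median 16.3) CPM with no overlap (log2 difference 4.73, SE 0.40, adjusted p = 2.6e-19). Ffar2, a receptor of short-chain fatty acids, rose by 3.29 (adjusted p = 1.7e-09), the sodium channel gene Scn3a by 3.84 (adjusted p = 5.2e-11) and the irritant receptor gene Trpa1 by 2.17 (adjusted p = 0.00076). Abcc8, the sulfonylurea receptor, rose by 2.93 (adjusted p = 2.6e-07). The proton-gated channel gene Asic5 had 25 transcripts in 5 enteroendocrine wells and none in other wells, at least 432-fold higher against a floor of 3 counts over all other wells. The glucose transporter gene Slc5a1, abundant in enterocytes, did not pass (log2 difference -0.63, adjusted p = 0.242). Nts and Pyy, hormones outside the rule, rose by 5.24 (adjusted p = 5.7e-17) and 5.05 (adjusted p = 1.1e-13), each carried by the few wells named above.

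**Figure D3:**
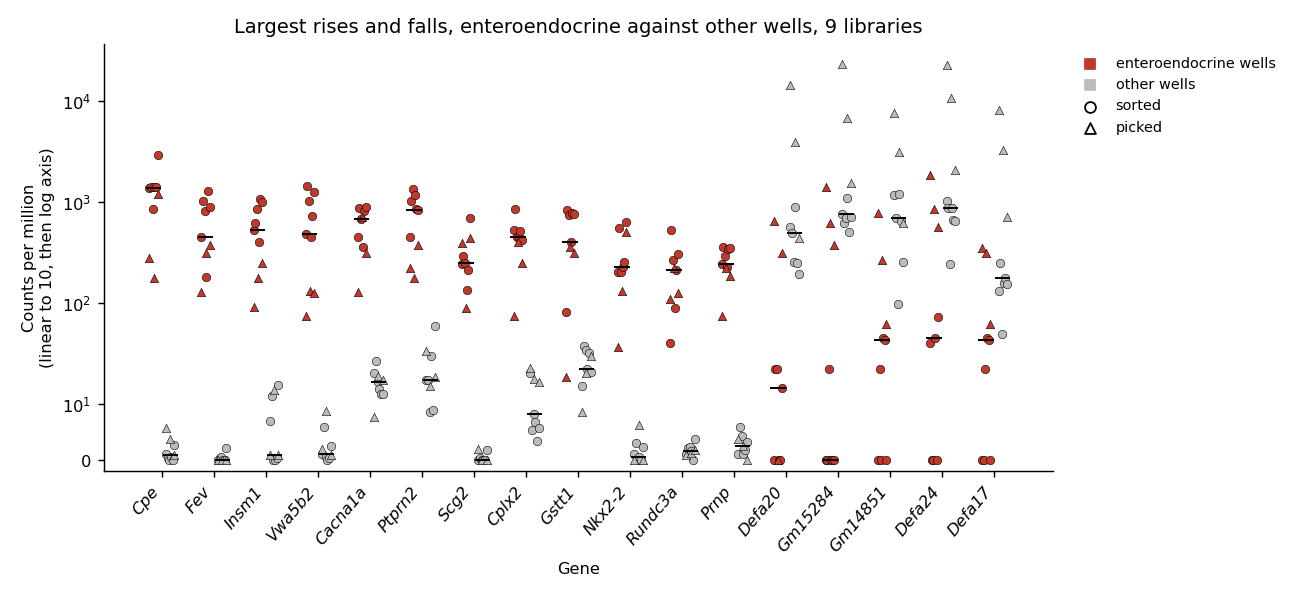
CPM (linear to 10, then log axis) of the 12 largest rises and 5 of the largest falls between enteroendocrine wells (red) and other wells (grey) of the same library, for 9 libraries (circles sorted, triangles picked, bars medians). Cpe is between 176 and 2887 in enteroendocrine wells and at most 5.7 in other wells; each of the 5 defensin genes is at 0 in the enteroendocrine wells of at least 2 sorted libraries.

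Among the largest falls that went the same way in every library were 5 cryptdin-type defensin genes of Paneth cells, Defa20, Gm15284, Gm14851, Defa24 and Defa17. These genes are near-identical copies, so the authors' counting may have divided reads among them. Defa24 stood at 40.3, 0, 0, 44.7, 0 and 71.9 CPM in sorted and 1829, 838 and 559 in picked enteroendocrine wells, against 245 to 22263 (median 876) in other wells (log2 difference -3.77, SE 0.21, adjusted p = 8.3e-33). Of the Paneth list 12 of 14 tested members were lower, of the goblet list 9 of 10 and of the enterocyte list 10 of 12, against 3.4% of all genes tested. Muc2 and Tff3, the goblet mucin and trefoil genes, differed by -2.03 (adjusted p = 1.6e-17) and -1.82 (adjusted p = 4.3e-18) on the log2 scale. With the selection share lowered to 0.15% all 9 goblet calls were lost, and the difference of Muc2 turned to 0.34. None of the 12 tuft markers had enough transcripts for a test, and in sum tuft genes held at most 0.00367% of enteroendocrine transcripts in a library.

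Markers of dividing and stem cells moved less. Of 25 proliferation genes, all tested, 4 were lower (Mki67, Mcm5, Pcna and Rrm2) and none higher, against 3.4% of all genes tested that were lower. The list's median log2 difference was -0.82. Of 28 alternatives Mki67 and Rrm2 kept their calls in 19 each, Pcna in 17 and Mcm5 in 11. Mki67 was found in 15 of the 72 wells (log2 difference -1.18, adjusted p = 0.0326). The list held 0.468, 0.0995, 0.168, 0.139, 0.102 and 0.0848% of transcripts in the enteroendocrine wells of the 6 sorted libraries, against 0.406 to 0.471% in their other wells. Of the 6, sorted replicate 1 alone reached the level of its other wells. There the deepest enteroendocrine well, with 10844 transcripts and led by Gip, had 0.988%, while the median enteroendocrine well had 0.0977%. In the picked libraries the list held 0.5, 0.388 and 0.199% in enteroendocrine and 0.283, 0.397 and 0.404% in other wells. Of 16 stem genes 10 were tested, with 1 higher (Nrn1, log2 difference 1.59, adjusted p = 0.0231) and 1 lower (the transporter gene Slc12a2, log2 difference -0.82, adjusted p = 0.0186). Slc12a2 kept its call in 19 of 28 alternatives and Nrn1 in 17 of 27. Lgr5, the defining stem marker, was found in 9 of the 72 wells and did not pass (log2 difference -0.06, adjusted p = 0.966). Immediate-early genes were higher in 7 of 10, against 8.13% of all genes tested, for example Fos, at 202 to 1056 (median 512) against 109.9 to 317 (median 161) CPM (log2 difference 1.62, SE 0.30, adjusted p = 9.4e-06), and Egr1, which was higher in all 9 libraries (log2 difference 1.81, adjusted p = 3.6e-05). Fos, Egr1 and Jun kept their calls in all 28 alternatives, Fosb in 27, Junb in 24, Ier2 in 19 and Dusp1 in 16. The nuclear RNA Malat1 was also higher, in 8 of 9 libraries (log2 difference 1.97, SE 0.16, adjusted p = 9.1e-21). Whether these stress-linked and RNA-quality genes bear on the other differences was not tested.

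Defining markers of stromal, endothelial and glial cells were near 0. Col1a1, Col1a2, Col3a1, Dcn and Cdh5 had no transcript in the enteroendocrine wells and Pecam1 had 1, while Vim, which was in the stromal list, rose by 4.93 (adjusted p = 2.7e-15). Of 8 neuron and glia genes 2 were tested and both rose, against 8.13% of all genes tested. They were Tubb3 and Ret (log2 differences 2.10 and 2.27, adjusted p = 0.00144 and 0.00029). The glial gene Sox10 had 0 transcripts. The immune list held up to 0.242% of transcripts outside the 14 genes in the sorted enteroendocrine wells, in sorted replicate 4 with the Gip well described above, and 0.000602 to 0.0341% in other sorted wells.

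**Figure D4:**
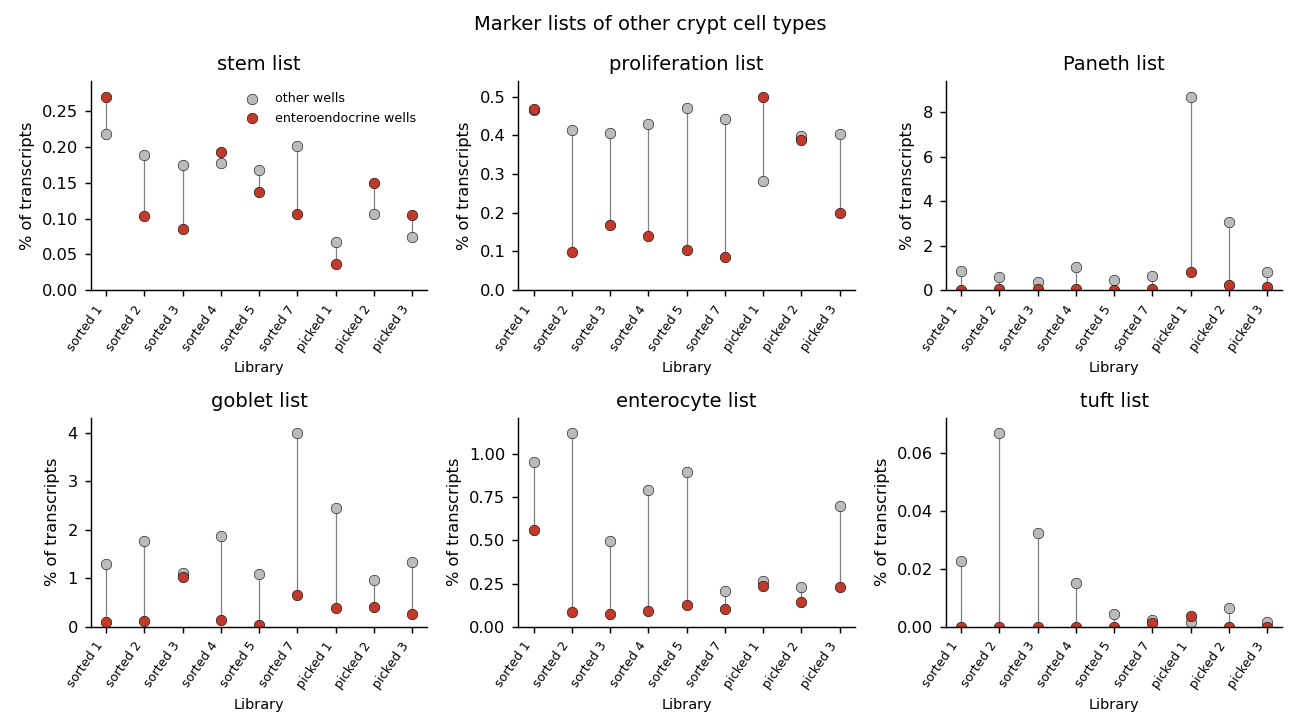
Summed share of transcripts (percent, linear axis from 0) of 6 marker lists in enteroendocrine wells (red) and other wells (grey), with 1 pair of points for each of 9 libraries. Paneth, goblet and enterocyte shares are lower in the enteroendocrine wells of all 9 libraries, and the proliferation share is close to or above that of other wells in sorted replicate 1, picked replicate 1 and picked replicate 2.

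Within the set, wells led by Tac1 or Tph1 were compared with wells led by other hormones in the 7 libraries that had at least 2 of each. All hormone genes and the 14 were left out. Of 2190 genes tested, 18 (0.822%) were higher and 15 (0.685%) lower in the wells led by Tac1 or Tph1, 1.51% in either direction. Without sorted replicate 2 or 7 there were 15 and 13 calls in all. Reg4, a secreted lectin gene, was at 4050.3, 1928, 11203, 0 and 0 CPM in the 5 sorted and 1065 and 10044 in the 2 picked libraries, and at 0 in all wells led by other hormones. It was thus at least 105-fold higher against a floor of 3 counts over those wells (adjusted p = 1.4e-13, higher in 5 of 7 libraries), and it came from 8 wells. The intermediate filament gene Vim was higher in 7 of 7 libraries, at 309 to 5529 (median 2462) against 0 to 223, median 0 (log2 difference 4.10, SE 0.46, adjusted p = 6.5e-13). Lmx1a, a LIM-homeodomain factor of enterochromaffin cells, was at 103 to 2047 (median 670.1) in 7 of 7 libraries and at 0 in the other wells, at least 26.3-fold higher (adjusted p = 4.2e-08). Gstt1 and Atf6 were higher in 7 of 7 libraries as well, by 2.66 (adjusted p = 6.7e-06) and 2.52 (adjusted p = 0.00011) on the log2 scale.

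Of 3 tested genes of serotonin synthesis and transport 2 were higher on this side, against 0.822% of all genes tested. Slc18a1, which loads amines into granules, rose by 1.84 (adjusted p = 0.0266) and Gch1 by 1.75 (adjusted p = 0.00766), each in 7 of 7 libraries. The call of Slc18a1 held in 18 of 26 alternatives and that of Gch1 in 20 of 26. Ddc, the other tested gene, did not pass (log2 difference 0.51, adjusted p = 0.665). Rab3c and Trpa1 were also higher, Rab3c by 3.05 (adjusted p = 2.7e-05) and Trpa1 at least 9.25-fold (adjusted p = 0.0412). Afp, Mmp7, Tpbg, Rgs2 and Amigo2 complete the 12 largest rises. Of these Afp and Tpbg were at 0 in the wells led by other hormones and thus at least 20.6-fold and 10.7-fold higher. Mmp7, matrilysin, was also in the Paneth list, and its level was 0 to 1179.6 (median 168) against 0 to 20 (median 0) CPM.

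The peptide-hormone side carried Scg2, Fabp5 and Rbp4. Scg2 was at 0 in the wells led by Tac1 or Tph1 of all 7 libraries and at 167 to 1235 (median 845) CPM in the others, at least 33.2-fold lower (adjusted p = 1.2e-08). In these libraries every well with Scg2 was thus led by another hormone. Fabp5, a fatty acid binding protein gene, was at 0 to 141 (median 0) against 0 to 6554, median 1565 (log2 difference -4.45, SE 0.53, adjusted p = 1.4e-11). Its level was 0 in both picked libraries on both sides. Rbp4, the retinol carrier, was at 0 against 0 to 1365 (median 339.9), at least 26.9-fold lower (adjusted p = 8.7e-06). Among transcription factor genes Lmx1a was higher, and Pax6 (log2 difference -2.24, adjusted p = 0.00963) and Etv1 (log2 difference -2.03, adjusted p = 0.0352) were lower. Slc5a1, the glucose transporter through which incretin cells sense sugar, was lower in 7 of 7 libraries, at 0 to 141 (median 0) against 149 to 949.6, median 259.8 (log2 difference -2.35, SE 0.58, adjusted p = 0.00963). Cpe, high in both, was lower too (log2 difference -1.10, adjusted p = 0.0243). The cell cycle inhibitor gene Cdkn1c and the nectin gene Pvrl3 were also lower (log2 differences -2.60 and -2.36, adjusted p = 0.00391 and 0.0145).

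**Figure D5:**
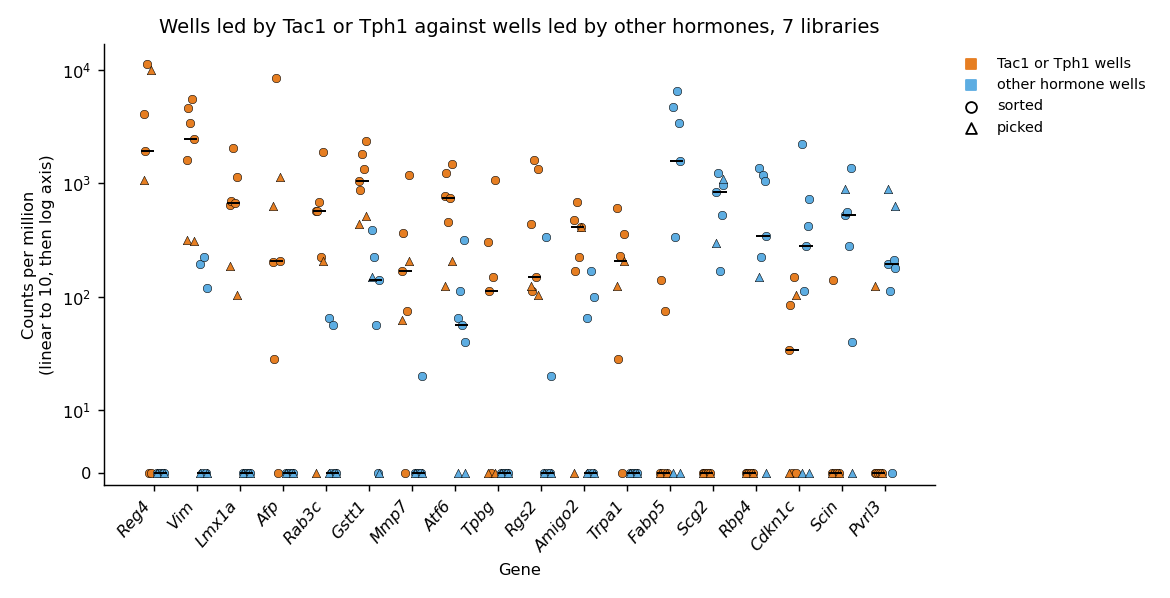
CPM (linear to 10, then log axis) in wells led by Tac1 or Tph1 (orange) and wells led by other hormones (blue) for the 12 largest rises and 6 largest falls, in 7 libraries (circles sorted, triangles picked, bars medians). Reg4, Lmx1a, Afp, Tpbg and Trpa1 are at 0 in all blue sums, and Scg2 and Rbp4 are at 0 in all orange sums.

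Picked and sorted enteroendocrine wells were compared next, over 3 and 6 libraries. Of 2123 genes tested, 101 (4.76%) were higher and 33 (1.55%) lower in the picked wells (6.31% in either direction), with a median log2 difference of -0.45. Scaled by library totals instead, 115 were higher and 19 lower, and the median was -0.32. The other wells of the same libraries were also compared, and there 20.3% of 11168 genes were called, 1480 higher (13.3%) and 792 lower (7.09%; 809 and 2712 when scaled by library totals). Genes of other crypt cells were among the rises: Defa24 stood at 1829, 838 and 559 CPM in the picked and 40.3, 0, 0, 44.7, 0 and 71.9 in the sorted libraries (log2 difference 4.00, SE 0.77, adjusted p = 0.00123), and the Paneth lysozyme gene Lyz1 at 3098, 794 and 248 CPM in the picked and 0, 88.5, 44.7, 224, 128 and 115 in the sorted libraries (log2 difference 2.77, SE 0.71, adjusted p = 0.0139). The ranges do not overlap for either gene. Beside this, the whole Paneth list held 0.83, 0.247 and 0.118% of transcripts in picked and 0.0202, 0.0265, 0.0447, 0.0582, 0.0213 and 0.0662% in sorted enteroendocrine wells. In other wells it held 8.7, 3.06 and 0.788% in the picked and 0.349 to 1.02% in the sorted libraries. By list, 2 of 4 tested Paneth genes and 1 of 7 proliferation genes (Ube2c, log2 difference 2.59, adjusted p = 0.00998) were higher, against 4.76% of all genes tested. In the other wells 10 of 15 Paneth genes were higher too, and 6 of 25 proliferation genes were higher and 1 lower. Of all genes tested in those wells, 13.3% were higher and 7.09% lower. The median log2 difference of the tested Paneth genes was 3.01 in other wells and 2.72 in enteroendocrine wells, so the Paneth rise was not particular to the latter. The ribosomal RNA precursor Rn45s was higher in both classes, by 2.71 (adjusted p = 1.0e-05) in enteroendocrine wells and 3.52 in other wells. The heat shock gene Hspa1a was at 0 in all 6 sorted libraries and at 460.2, 44.1 and 248 CPM in the picked ones, at least 24.7-fold higher. It had 30 transcripts in all, and its level was highest in picked replicate 1. Further large rises were Gm15284, 2310014L17Rik, Rpl37, Kif3a, Sfn, Dbi, Loxl2, Hspa1b and Mir682, with log2 differences from 2.82 to 4.38. Without picked replicate 1 Lyz1 lost its call (log2 difference 2.21, adjusted p = 0.0655) and Defa24 kept it (log2 difference 3.68, adjusted p = 0.00388). Hspa1b lost its call as well (log2 difference 3.00, adjusted p = 0.0535), and Hspa1a, Gm15284 and Sfn could not be tested without that library. All 10 immediate-early genes were higher in the picked libraries' other wells, against 13.3% of all genes tested there, with a median log2 difference of 2.24. In enteroendocrine wells the 9 tested had a median of 0.80, and limma called none of them (3 were at an unadjusted p under 0.05). The difference between the classes itself was called by limma for none of the 9 (0 were at an unadjusted p under 0.05), so the classes are not shown to differ.

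Among the genes lower in picked wells were a few of the endocrine lists. Ddc stood at 460.1, 132 and 807 CPM in the picked and 888, 3569, 1568, 1881, 1834 and 1902 in the sorted libraries (log2 difference -2.77, SE 0.60, adjusted p = 0.00355), with no overlap. Cpe stood at 276, 176 and 1180.4 CPM in the picked and 1372, 1395, 850.2, 1388, 1408 and 2887 in the sorted libraries (log2 difference -1.96, SE 0.48, adjusted p = 0.0105), where picked replicate 3 lies within the sorted range. Insm1, Vwa5b2, Ptprn2 and Gch1 had differences of -2.07, -2.70, -1.70 and -2.91 on the log2 scale (adjusted p = 0.0246, 0.00628, 0.0346 and 0.0267). Aplp1, an amyloid precursor-like protein gene, had the largest fall (log2 difference -3.66, SE 0.98, adjusted p = 0.0209). By list, 2 of 8 tested granule genes, 2 of 3 serotonin genes and 1 of 17 transcription factor genes were lower and none was higher, against 1.55% of all genes tested that were lower. None of 6 exocytosis genes and none of 5 receptor and channel genes was called by limma, with 2 and 1 of them at an unadjusted p under 0.05. Malat1 was lower in both classes, with log2 differences of -2.50 in enteroendocrine and -1.28 in other wells. A picked well pools the enteroendocrine cell with its neighbours, so less of a transcript per well and less per endocrine cell cannot be told apart. Without picked replicate 1, 92 genes were higher and 3 lower in the picked wells, and of the genes named in this paragraph only Ddc kept its call (log2 difference -2.37, adjusted p = 0.0361). Of those that lost theirs, the log2 differences were then -3.50 for Aplp1, -2.87 for Vwa5b2, -1.61 for Cpe and -2.14 for Malat1 (adjusted p = 0.145, 0.068, 0.132 and 0.0655). Without its deep well alone 45 were higher and 17 lower. Without sorted replicate 2, sorted replicate 5 or picked replicate 2 there were 84, 79 and 83 calls in all, and without picked replicate 2 Ddc lost its call.

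Whether the difference between enteroendocrine and other wells itself depended on picking was tested as an interaction. It was called for 8 of 3996 genes (0.2%), 4 (0.1%) in each direction. Fabp5 had the smallest adjusted p (log2 difference -5.46, SE 1.02, adjusted p = 0.00082): it stood at 55.1, 0 and 0 CPM in the picked and 2911, 1600.5, 179, 5257, 1409.8 and 1126 in the sorted libraries in enteroendocrine wells. Nts was lower on the picked side, where it was at 0 in all 3 libraries. Dmbt1 and Lypd8, genes of epithelial defence, were higher on the picked side (log2 differences 2.19 and 1.74, adjusted p = 0.00746 and 0.0185), and so were Pvrl3 and the ribosomal protein gene Rps2. The other 2 lower ones were A630089N07Rik and Gm17821. Scaled by library totals 7 were higher and 2 lower. Without picked replicate 1 no gene was called by limma, with 213 of 3702 genes at an unadjusted p under 0.05, against 351 in the full comparison. Leaving out sorted replicate 3, 5 or 7 gave 5, 3 and 16 calls, and leaving out picked replicate 2 or 3 gave 5 each. No gene of the granule, exocytosis, serotonin or transcription factor lists was called by limma in this test. At an unadjusted p under 0.05 were 3 of 7 tested granule, 1 of 6 exocytosis, 2 of 3 serotonin and 10 of 17 transcription factor genes. Their median log2 differences were -1.69, -1.40, -1.90 and -2.12, against -0.24 for all genes tested. These lists are thus not shown to be unaffected by picking.

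The marker lists of possible neighbour cells were compared in the same way, as the share in enteroendocrine wells minus that in other wells of the library. The Paneth difference was -3.78 ± 3.7 percentage points (SD, n = 3) in picked and -0.618 ± 0.248 (SD, n = 6) in sorted libraries (two-sided exact permutation test, p = 0.0714, adjusted p = 0.214 over 6 lists). Without picked replicate 1 the picked mean was -1.74, and the picked minus sorted difference went from -3.17 to -1.12 points (exact permutation p = 0.214). As a mean over wells the difference was -0.106 (exact permutation p = 0.857). The proliferation difference was 0.00114 ± 0.212 against -0.261 ± 0.138 (exact permutation p = 0.0714, adjusted p = 0.214). Without sorted replicate 1 it differed by 0.315 points (exact permutation p = 0.0357, adjusted p = 0.143). For the stem, goblet, tuft and enterocyte lists the exact permutation p lay between 0.119 and 0.738. The smallest p that 3 against 6 libraries allow is 0.0238. In wells led by Tac1, stem list genes were 0.107 and 0.0404 percentage points above the other wells in picked replicates 2 and 3, and from -0.124 to 0.000878 points from them in 5 sorted libraries (exact permutation p = 0.0952, the smallest that 2 against 5 libraries allow). The 4 picked wells led by Tac1 held 14 stem list transcripts in picked replicate 2 and 7 in picked replicate 3, and none of Lgr5.

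Enteroendocrine wells were shallower than other wells of their library by the median in all 10 libraries, for example 5777 against 14605 transcripts in sorted replicate 7. Over 9 libraries the log2 difference in transcripts was -0.81 ± 0.26 (SD, n = 9), and that in the ratio to the spike-in RNA -0.82 ± 0.52 (SD, n = 9). The total is the denominator of the selection rule, so these are given without a test. When only wells with at least 2000 transcripts were used, 3 of 9 libraries turned to deeper enteroendocrine wells. At a fixed depth of 2000 transcripts per well, enteroendocrine wells had more genes: the median was 1294 against 1193 in sorted replicate 7 and 1057 against 1052 in picked replicate 3, the smallest gap. The mean gap was 62.4 genes, given without a test since each enteroendocrine well has at least 3 of the 14 genes by rule. With the 14 genes removed before thinning, a choice made after seeing the data, the gap was 27.5 to 156 genes (mean 108), with enteroendocrine wells higher in 9 of 9 libraries (two-sided exact sign-flip permutation test, p = 0.0039, the smallest possible). Thinning used only the 49 of 72 enteroendocrine wells with at least 2000 transcripts, and fewer, 3 to 10 a library, once the 14 genes were removed.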

How the data were processed

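Single cells and small groups of attached cells from mouse small intestine were measured by CEL-seq2 in 10 plates of 384 wells. The authors deposited 1 table per plate with a value for each gene and well, without scaling. Per the submitters' processing notes, the aligner was BWA 0.6.2-r126 and the genome build mm10. For the counting software, its use of strand and its filters, the sources used here give nothing. The deposited values follow minus 4096 × ln(1 - k / 4096) for whole k, so they are barcode counts corrected for barcodes used more than once, and they are called transcripts here. As they are not whole counts, no count model was fitted. Without strand information, overlapping and antisense genes cannot be told apart.

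The enteroendocrine wells, the gene lists and the tests were chosen with earlier results of these data known. Spike-in rows were left out of totals. For each library with at least 3 enteroendocrine wells, enteroendocrine and other wells were summed, and the 14 selection genes were taken out. Where 2 sums of a library, or libraries with each other, were compared, each was rounded and thinned at random to the smallest sum in its comparison, because uneven depth moved the fitted differences. This thinning was added after seeing the data. Sums were scaled by a trimmed mean of log ratios to the mean profile. Genes with at least 15 transcripts and 3 sums above 0 were tested with voom and limma 3.58.1 in R 4.3.3, with the library as a block where both sums entered, and Benjamini-Hochberg adjustment over all genes tested. The fits were tested on simulated data with known changes. Single values per library were compared by exact permutation tests (scipy 1.17.1).

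Named genes are the 14 selection genes, hormones, the members of 18 lists, and for each comparison the 12 largest rises and 6 largest falls past the threshold. In the comparison with other wells these also had to go the same way in every library and have at least 30 enteroendocrine transcripts. Other genes named for values were chosen after these were seen. Transcripts in enteroendocrine wells ranged from 1075 to 44248 per well, and intervals cover counting error only. Doublets were not called, since picked wells hold several cells by design and a caller has no use for 73 wells. Promoter sequences are from RefSeq on GRCm38.p6. Alternatives covered the well rule, the scaling, the filter on low values, the test, the summing and leaving out each library. Some genes that the rule or the lists name are not reported here.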

Additional observations from a re-analysis of the deposited data

Results flagged for a closer look

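In all, 30 groups of values were checked for a library apart from the others of its group, and 11 were found. Chance flags about 1 in 20 groups where values are roughly normal, which hormone levels are not, since many are at 0 or carried by few wells. The share of enteroendocrine wells was 0.379% in sorted replicate 6 and 3.17 to 4.98% in the other 6 sorted libraries. Of the hormones, Gip reached 84724 CPM in the enteroendocrine wells of sorted replicate 4, against 241 to 31276 in the other sorted libraries. Ghrl reached 5739.8 in sorted replicate 7, against at most 1879 elsewhere among the sorted libraries, and Gcg 40928 in sorted replicate 5, against at most 6857. Sst was at 49172 in sorted replicate 3 and at 0 in the others. Nts was at 23933 in sorted replicate 1, against at most 3868, and Pyy at 21031 in sorted replicate 5, against at most 1973. The Sst and Pyy values each come from a single well described above, as do 617 of the 618 Nts and 1068 of the 1069 Gcg transcripts.

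Among marker lists, enterocyte genes held 0.560% of enteroendocrine transcripts outside the 14 selection genes in sorted replicate 1 and 0.0737 to 0.128% in the other sorted libraries, and proliferation genes 0.468% there and 0.0848 to 0.168% in the others. Both values of sorted replicate 1 were carried mostly by single wells. The Nts well had 1.77% enterocyte genes (median well 0.0853%), and the deepest well, led by Gip, had 0.988% proliferation genes (median well 0.0977%). Immune genes held 0.242% in sorted replicate 4, where the Gip well with Ccl5, Gzmb and Gzma lies, and at most 0.00426% in the others. Tuft genes held 0.00144% in sorted replicate 7 and were at 0 in the other sorted libraries, a value that rests on 1 transcript.

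The difference between enteroendocrine and other wells itself differed between picked and sorted libraries for 8 genes by limma, and none of them kept its call in every alternative. On the log2 scale the picked side was higher by 4.25 for Pvrl3, 2.19 for Dmbt1, 1.74 for Lypd8 and 1.02 for Rps2. The values for Nts, Fabp5, A630089N07Rik and Gm17821 were -5.83, -5.46, -1.97 and -1.57. In data outside the comparisons, 15 wells with under 1000 transcripts met the rest of the rule for enteroendocrine wells.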

How the results depend on the processing

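No paired analysis was possible because sorted and picked libraries share no replicate numbers in the labels. The comparison with other wells gave 804 calls, 508 to 924 with 1 library left out, 526 with sorted plates of code GK5a only and 6462 (5921 higher, 541 lower) with sums not thinned. Of 126 named genes called there, 86 kept their call in every alternative. With a selection share of 0.15%, log2 differences turned to 0.0094 for Clca3, 0.15 for Fcgbp, 0.54 for Klk1, 0.26 for Mmp7 and 0.34 for Muc2. The picked against sorted comparison gave 134 calls (101 higher, 33 lower): 85 with a share of 0.15%, 79 with 4 genes, 86 (48 and 38) with at least 2000 transcripts, 79 to 138 with 1 library left out, 76 (73 and 3) with a granin, Neurod1, Isl1 or Scgn required, 62 without the deepest well, 365 (139 and 226) with no filter on low values, 215 (78 and 137) by limma with a trend on log2(CPM + 10) and 345 with sums not thinned. Of 30 named genes called, 2310014L17Rik, Defa24, Rn45s and Rpl37 kept their calls throughout. Many named genes of low level could not be tested in some alternatives.

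The interaction gave 8 calls: 2 with a share of 0.6% or 4 genes, 0 to 16 with 1 library left out, 16 with GK5a only, 0 with a granin, Neurod1, Isl1 or Scgn required, with a trend or with at least 5 wells, 48 with no filter, 5 with a filter of 30 or whole barcode counts, 13 with the mean of CPM over wells and 62 with sums not thinned. Wells led by Tac1 or Tph1 gave 33 calls: 13 to 34 with 1 library left out, 13 with GK5a only and 6 with a trend. Of 26 named genes called, 6 kept their calls throughout (Gstt1, Lmx1a, Rbp4, Reg4, Scg2 and Vim). The picked minus sorted share of wells turned to -0.020 points with at least 2000 transcripts and to -0.168 with the added requirement. The goblet list turned to -0.949 with a share of 0.15% and -0.0915 with GK5a only, and lay between -0.0915 and 0.691 with 1 library left out. The stem list (0.111) and the proliferation list (0.238) passed an unadjusted exact permutation p of 0.0238 as means over wells, and the latter lay between 0.154 and 0.365 with 1 library left out. The log2 difference in transcripts was -0.48 with at least 2000, and enteroendocrine wells were then deeper in 3 of 9 libraries. The causes were not tested. Depth limits which genes could be tested, 2123 in picked against sorted wells and 2190 between kinds of well.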

Other observations

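The 8 wells with at least 5 Neurog3 transcripts also differed from the other 65 in genes outside the selection. Hes6, a Notch-pathway inhibitor gene, was found in 6 of 8 against 14 of 65 wells, and Rfx6, an endocrine winged-helix factor gene, in 7 of 8 against 30 of 65. Mki67, a marker of dividing cells, was found in 0 of 8 against 15 of 65. These are counts of wells at unequal depth, with no test.

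Goblet list genes made up over 1% of transcripts in 9 of the 73 enteroendocrine wells, from 5 libraries. The highest shares were 4.37% in a well of sorted replicate 7 led by Gip, 4.36% in a Tac1 well of sorted replicate 3 and 3.60% in a Gcg well of picked replicate 2. The first of these held 1267 transcripts with 5 of Gip and 1 of Chgb, which is not shown to be above that plate's background. The Tac1 well held 10104 transcripts, and it lifts the goblet share of its library to 1.03%, against 1.11% in the library's other wells. Whether these wells hold more than 1 cell was not tested.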
